A study of Mus musculus with 7899 samples.

Results

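The genes described here are the writers, erasers and readers of histone acetylation in mouse pancreatic β cells: 47 genes picked from the 21767 genes of the series by their symbols alone. The rule takes the numbered Hdac genes, Sirt1 to Sirt7, the acetyltransferases Kat2a, Kat2b, Kat5, Kat6a, Kat6b, Kat7, Kat8 and Hat1, the numbered Brd genes, Ncoa1 to Ncoa7, the Ncor genes and Ing1 to Ing5. By role they include 8 acetyltransferases, 7 coactivators, 18 deacetylases of which 7 are sirtuins, 7 bromodomain readers and 5 Ing readers. All 47 are listed in 6 of the 7 tables of the series. The Stat3 table lists 12792 genes and holds 40 of them, without Brd9, Hdac8, Hdac10, Ing1, Ing2, Ncoa4 and Sirt5. Every listed member passed the filter on low counts in its table, so each count below is of all listed members.

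The β cells came from female C57BL/6J mice and were read one by one with Smart-seq3xpress, which copies full-length transcripts in plates. The 7897 cells form 100 libraries, a library being the cells of 1 group and replicate, and reads were summed within each. The pregnancy time course covers 9 days of gestation between G3.5 and G18.5, named by the day, and days 2, 7 and 14 after delivery (P2, P7, P14) in mice labelled L or NL, read as lactating and not lactating, against G0, on a standard diet. The other groups are Acss2 and Stat3 knockouts with their wild types at G0, G14.5 and G18.5, p300 knockouts with their wild types at G0 and G14.5, and mice on a high-fat diet at G14.5, P7NL and G0. The high-fat diet groups include Acss2 knockouts and wild types at G14.5 and G0, beside Acss2 wild types on a standard diet at G14.5. Islets of mice on a standard diet were cultured for 4 days in medium with 20% human serum, either maternal (MS) or normal (NS), with 5 µM A485, 20 µM nifuroxazide or the vehicle DMSO. The sources used here do not give how the knockouts were made, the age of the mice or the number of mice behind a replicate. There were 3 libraries each of G14.5, G18.5, P14L and the high-fat G14.5 without a named genotype, and 2 of every other group.

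Libraries held 13273435 to 181405413 reads from 21 to 160 cells, and Ins1 and Ins2 took 33.04% to 69.8% of the reads. The G0 library of replicate 2 in the time course, which enters all 15 comparisons with G0, held 35 cells and 25623339 reads, the fewest of that table. Tph1, the serotonin-synthesis gene of pregnant β cells, chosen here after its values were seen, had 86.2 to 281 counts per 1e6 reads (CPM, at TMM-scaled library sizes) in the 24 libraries labelled G14.5 and 0 to 1.11 CPM in the 20 labelled G0. Of the markers of other cell types, summed over each list, acinar markers reached 8.75 CPM at most in the time course, endothelial markers 10.3 CPM and stromal markers 1.68 CPM. Markers of α cells summed to 1205 to 5586 CPM there, of hepatocytes to 378 to 2301 CPM, of pancreatic polypeptide (PP) cells to 105.7 to 2134 CPM, of ductal cells to 134.3 to 323 CPM and of immune cells to 50.2 to 158.3 CPM. Summed δ-cell markers ran from 88.1 to 4279 CPM, and the highest library was 1 of the 2 at G6.5. At G14.5, Sst was called lower than at G0, and δ-cell markers summed to 110 to 267 CPM at G14.5 against 373 to 813 CPM at G0. Leaving out the 21 cells with over 5% of reads in Gcg, Sst, Ppy and Pyy ended the calls of Sirt6 at G10.5, Sirt2 at P2L and Brd8 at P14L, with log2 fold changes of 0.81, 0.60 and -0.47 without these cells and 0.83, 0.61 and -0.48 with them.

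Acetyl groups on histone tails are placed by acetyltransferases, which use acetyl-CoA, and are removed by zinc-dependent deacetylases (Hdac) and by the NAD-dependent sirtuins. Bromodomains bind acetylated lysines, and Ing proteins bring acetyltransferase or deacetylase complexes to methylated histone tails. Nuclear receptor coactivators and corepressors recruit these enzymes to promoters. Several members act mainly outside chromatin: Hdac6 removes acetyl groups from tubulin in the cytoplasm, Sirt3, Sirt4 and Sirt5 are mitochondrial, and Ncoa4 takes ferritin to lysosomes. In β cells, acetylation at islet genes is linked to the insulin programme, and Acss2, for which the series is named, makes acetyl-CoA from acetate.

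At G0 the bromodomain gene Brd2 had the highest level per length of all members, with 26.3 and 21.7 reads per kilobase per 1e6 reads (RPKM) in replicates 1 and 2. Brd8, a subunit of the TIP60 acetyltransferase complex, followed with 21.5 and 25.5, and Hdac6 with 22.3 and 20.3. These 3 genes do not differ in level beyond the spread of the 2 libraries. The lowest member was the class IIa deacetylase Hdac9, with 0.811 and 0.527 RPKM. The median member had 6.31 RPKM, against 2.42 for the 15373 genes tested in the time course.

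Within the roles, the acetyltransferases ran from Kat7, the enzyme of the HBO1 complex, with a mean of 8.59 RPKM at G0, to Kat6a with 2.21. Among the coactivators the p160 protein Ncoa1 was highest with 9.15, and its relative Ncoa3 lowest with 1.62. The class I deacetylases ran from Hdac1, an enzyme of the Sin3 and NuRD complexes, with 18.4 to Hdac8 with 2.12. In class IIa, whose members shuttle between nucleus and cytoplasm, Hdac5 had 9.32 and Hdac9 had 0.669. Hdac6 with 21.3 and Hdac10 with 5.73 bounded the classes IIb and IV. Sirt2, a cytoplasmic tubulin deacetylase, led the sirtuins with 15.5, and Sirt1 was lowest with 2.07. The corepressor Ncor1 had 11.6, and the readers ran from Brd2 with 23.96 to Brd1 with 5.47 and from Ing2 with 15.001 to Ing3 with 3.38. A read of Brd2 was found in at least 97.4% of the cells of every time-course library, and one of Hdac9 in 7.63% to 53.1%.

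**Figure D1:**
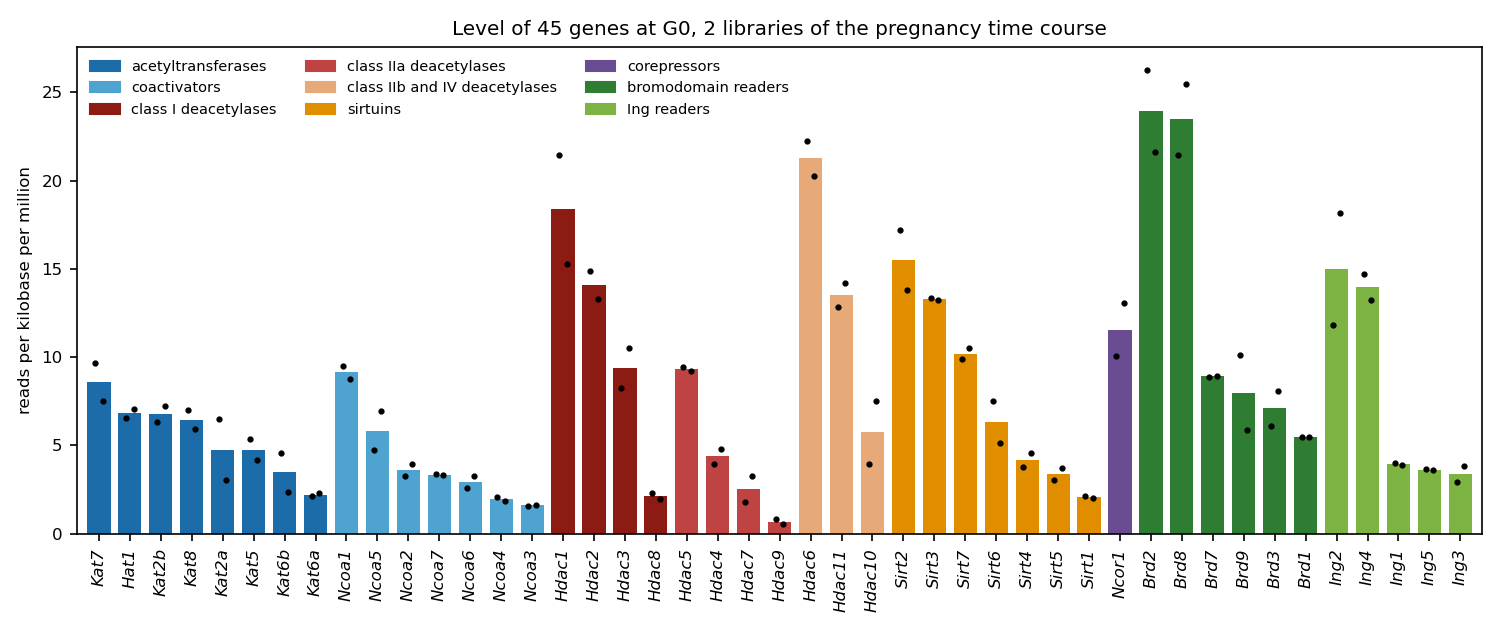
Level of 45 of the 47 genes at G0 of the pregnancy time course, in RPKM with the deposited gene length. Bars are the mean of the 2 libraries, points are the libraries (replicate 1 left, replicate 2 right), and colours mark the role; Brd2, Brd8 and Hdac6 stand above 20 and Hdac9 is the lowest at 0.669.

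Across the 55 comparisons of the series, 18 of the 47 members were called at least once, in edgeR's quasi-likelihood test with a Benjamini-Hochberg adjusted p under 0.05, and 29 in none. Members with no call include the deacetylases Hdac1, Hdac2 and Hdac8, the bromodomain proteins Brd2 and Brd3, and every acetyltransferase other than Kat2b. The 62 calls were concentrated on few genes: Ncoa7 was called in 17 comparisons, Hdac6 in 9, Brd8 in 6, Sirt6 in 5, Ncoa3 in 4 and Sirt7 in 3.

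In the time course, each count of called members is given beside the share of all genes called in the same comparison. At G3.5, 0 of 47 members were called and 0.579% of all tested genes, with 8 members at an unadjusted p under 0.05 and 2 called by DESeq2. Over all 15373 genes, 1815 had an unadjusted p under 0.05 at G3.5 and DESeq2 called 327. At G5.5 it was 1 member against 1.57% of all genes, at G6.5 again 1 against 1.65%, at G8.5 it was 4 against 5.79%, at G10.5 it was 2 against 2.76% and at G12.5 it was 3 against 5.03%. G14.5 had the most in the time course, with 7 members (14.9%) against 10.1% of all genes, then G16.5 with 4 against 7.25% and G18.5 with 2 against 4.77%. After delivery, 4 members were called at P2L against 2.61% of all genes, 3 at P7L against 3.35% and 3 at P14L against 3.43%. In mice labelled NL, 0 were called at P2NL against 0.572% of all genes, with 6 members at an unadjusted p under 0.05 and 0 called by DESeq2. At P7NL 2 were called against 0.462%, and at P14NL 0 against 0.28%, with 5 members at an unadjusted p under 0.05 and 1 called by DESeq2. Of all genes, 1636 and 1533 had an unadjusted p under 0.05 at P2NL and P14NL, and DESeq2 called 239 and 217. All 15 comparisons share the 2 G0 libraries.

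**Figure D2:**
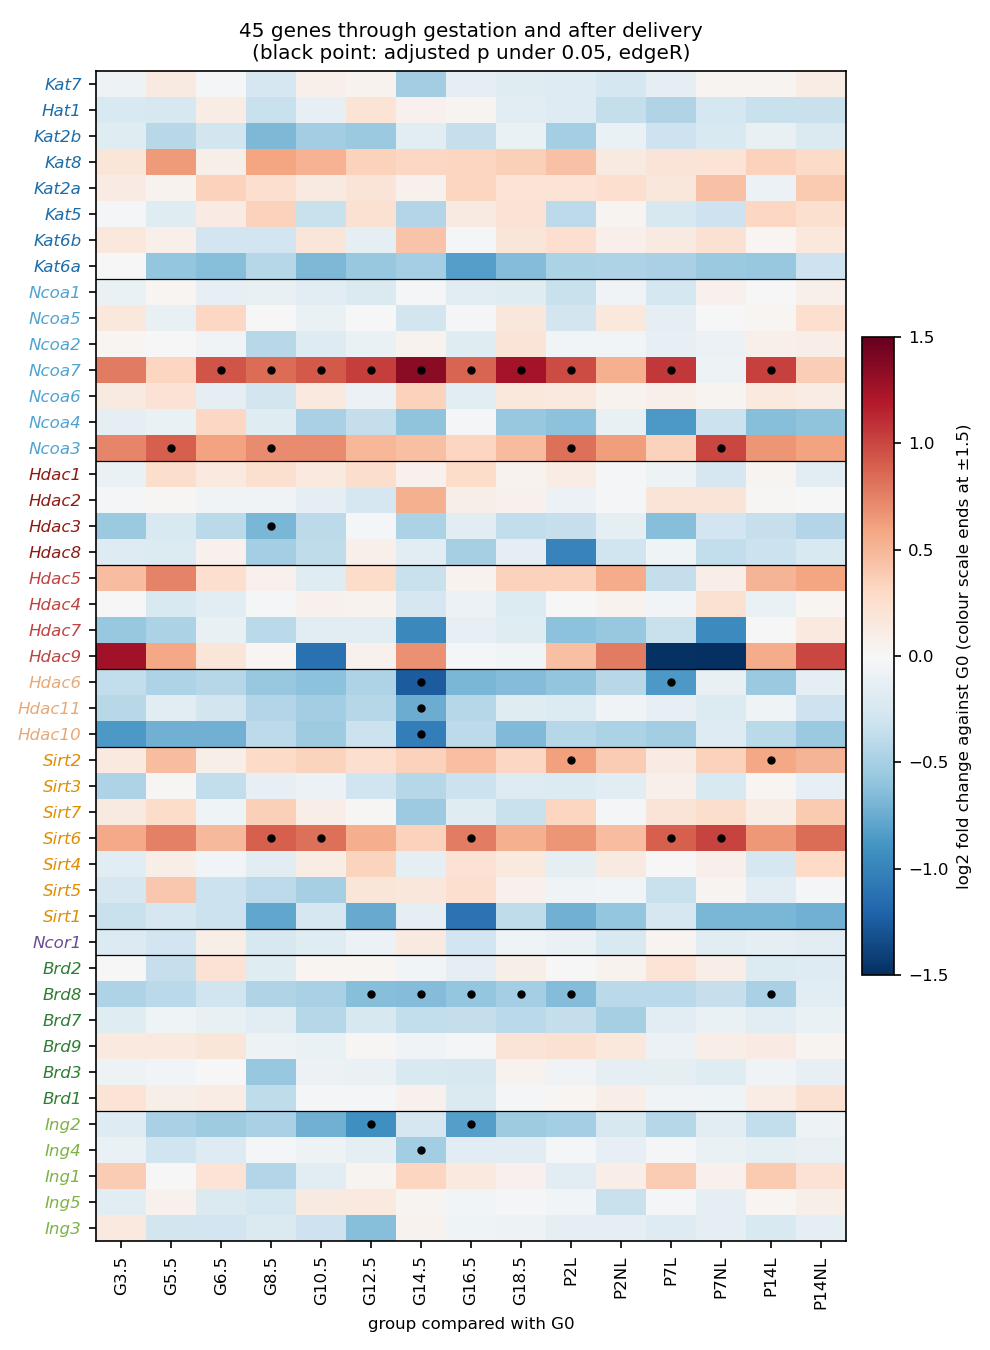
Log2 fold change of 45 of the 47 genes in each group of the time course against G0, with genes grouped by role and groups in order of time. Red is higher and blue lower than at G0, and black points mark an edgeR adjusted p under 0.05: Ncoa7 is marked in 10 columns, Brd8 in 6 and Hdac6 in 2.

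At G14.5 the members called were 1 coactivator that rose, Ncoa7, and 6 genes that fell, among them the deacetylases Hdac6, Hdac10 and Hdac11, the TIP60 subunit Brd8 and the HBO1-complex reader Ing4. All 3 genes of the classes IIb and IV fell, with log2 fold changes of -1.25, -1.03 and -0.74. Among 8 acetyltransferases, 7 sirtuins and the 8 deacetylases of classes I and IIa no call was made by edgeR. The deacetylase Hdac2 lay just outside, with 66.1 ± 18.1 CPM at G14.5 against 45.8 ± 3.69 CPM at G0 (SD, n = 3 and 2, edgeR adjusted p = 0.0512). The median log2 fold change of the 47 members was -0.14, against 0.01 over all 15373 genes, and 20 of 47 members were above 0. Leaving out G0 replicate 2 gave 3 called members. Of the G14.5 libraries, leaving out replicate 1 gave 3, replicate 2 gave 13 and replicate 3 gave 4. The share of all genes called in these refits is not given, so the counts are not read as a result about the members.

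Ncoa7, a coactivator of nuclear receptors with a TLDc domain, lies at chr10:30628999-30803326 on the minus strand (GRCm38, GENCODE vM21, protein-coding). Its files' identifier ENSMUSG00000039697 matches that annotation, and 78 of its 10565 exonic bases overlap Hint3 on the same strand. In the time course it had 53.3, 39.5 and 37.9 CPM at G14.5 in replicates 1 to 3, against 17.2 and 16.9 CPM at G0. The lowest G14.5 library was above both G0 libraries. The log2 fold change was 1.35 with a standard error of 0.20 (edgeR adjusted p = 2.14e-05).

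Ncoa7 had 29.6 and 28.8 CPM at G3.5, which was not called (edgeR adjusted p = 0.0757), and 19.6 and 23.2 CPM at G5.5 (edgeR adjusted p = 0.491). From G6.5 it was above G0 at every day sampled, with 32.3 and 33.3 CPM at G6.5, 27.4 and 33.4 at G8.5, 30.5 and 34.1 at G10.5 and 42.5 and 27.4 at G12.5. At G16.5 it had 25.7 and 36.5 CPM and at G18.5 41.3, 41.3 and 39.01 CPM. The log2 fold changes against G0 were 0.94 at G6.5, 0.83 at G8.5, 0.92 at G10.5, 1.03 at G12.5, 0.87 at G16.5 and 1.25 at G18.5, with edgeR adjusted p from 7.26e-05 to 0.0139. The calls at G14.5 and G18.5 held without each library in turn. The call at G6.5 was lost without any 1 of its 4 libraries (edgeR adjusted p = 0.0576 to 0.121). At G8.5, G10.5 and G16.5 the call was lost without G0 replicate 1 (0.0672, 0.0633 and 0.0510), without G0 replicate 2 (0.0954, 0.0887 and 0.0722) and without replicate 2 of the day itself (0.137, 0.102 and 0.209), all as edgeR adjusted p. At G12.5 it was lost without replicate 1 of that day (log2 fold change 0.69, edgeR adjusted p = 0.122).

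After delivery Ncoa7 was higher than at G0 in the groups labelled L. It had 32.7 and 34.6 CPM at P2L, 29.8 and 41.5 at P7L and 32.5, 34.2 and 37.7 at P14L, against 17.2 and 16.9 CPM at G0. The NL groups had 26.96 and 22.3 CPM at P2NL, 15.4 and 17.04 at P7NL and 25.6 and 18.52 at P14NL. The log2 fold changes against G0 were 0.98 at P2L, 1.06 at P7L and 1.03 at P14L (edgeR adjusted p = 0.00589, 0.00189 and 0.00130), and 0.53, -0.07 and 0.37 at P2NL, P7NL and P14NL (edgeR adjusted p = 0.301, 0.953 and 0.570). The P2L call was lost without G0 replicate 2 or P2L replicate 2 (edgeR adjusted p = 0.0614 and 0.0904), the P7L call without P7L replicate 2 (0.0958), and the P14L call held without each library.

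The comparison of L with NL at the same day uses no G0 library. Of all members, Ncoa7 alone was called in it by edgeR, at day 7, with 35.6 ± 8.24 CPM at P7L and 16.2 ± 1.14 CPM at P7NL (SD, n = 2 each) and a log2 fold change of 1.14 with a standard error of 0.21 (adjusted p = 0.00194). All genes called there came to 0.839%. Without P7L replicate 2 or P7NL replicate 1 the adjusted p was 0.134 or 0.0799. At day 2, 0 of 47 members and 0.124% of all genes were called, with 2 members at an unadjusted p under 0.05 and 0 called by DESeq2, and at day 14, 0 members and 0.722% of all genes, with 4 members at an unadjusted p under 0.05 and 1 called by DESeq2. Of all genes, 755 at day 2 and 1419 at day 14 had an unadjusted p under 0.05, and DESeq2 called 48 and 251. Ncoa7 had a log2 fold change of 0.45 at day 2 and 0.66 at day 14 (edgeR adjusted p = 0.957 and 0.120). Its difference between the days was not tested.

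**Figure D3:**
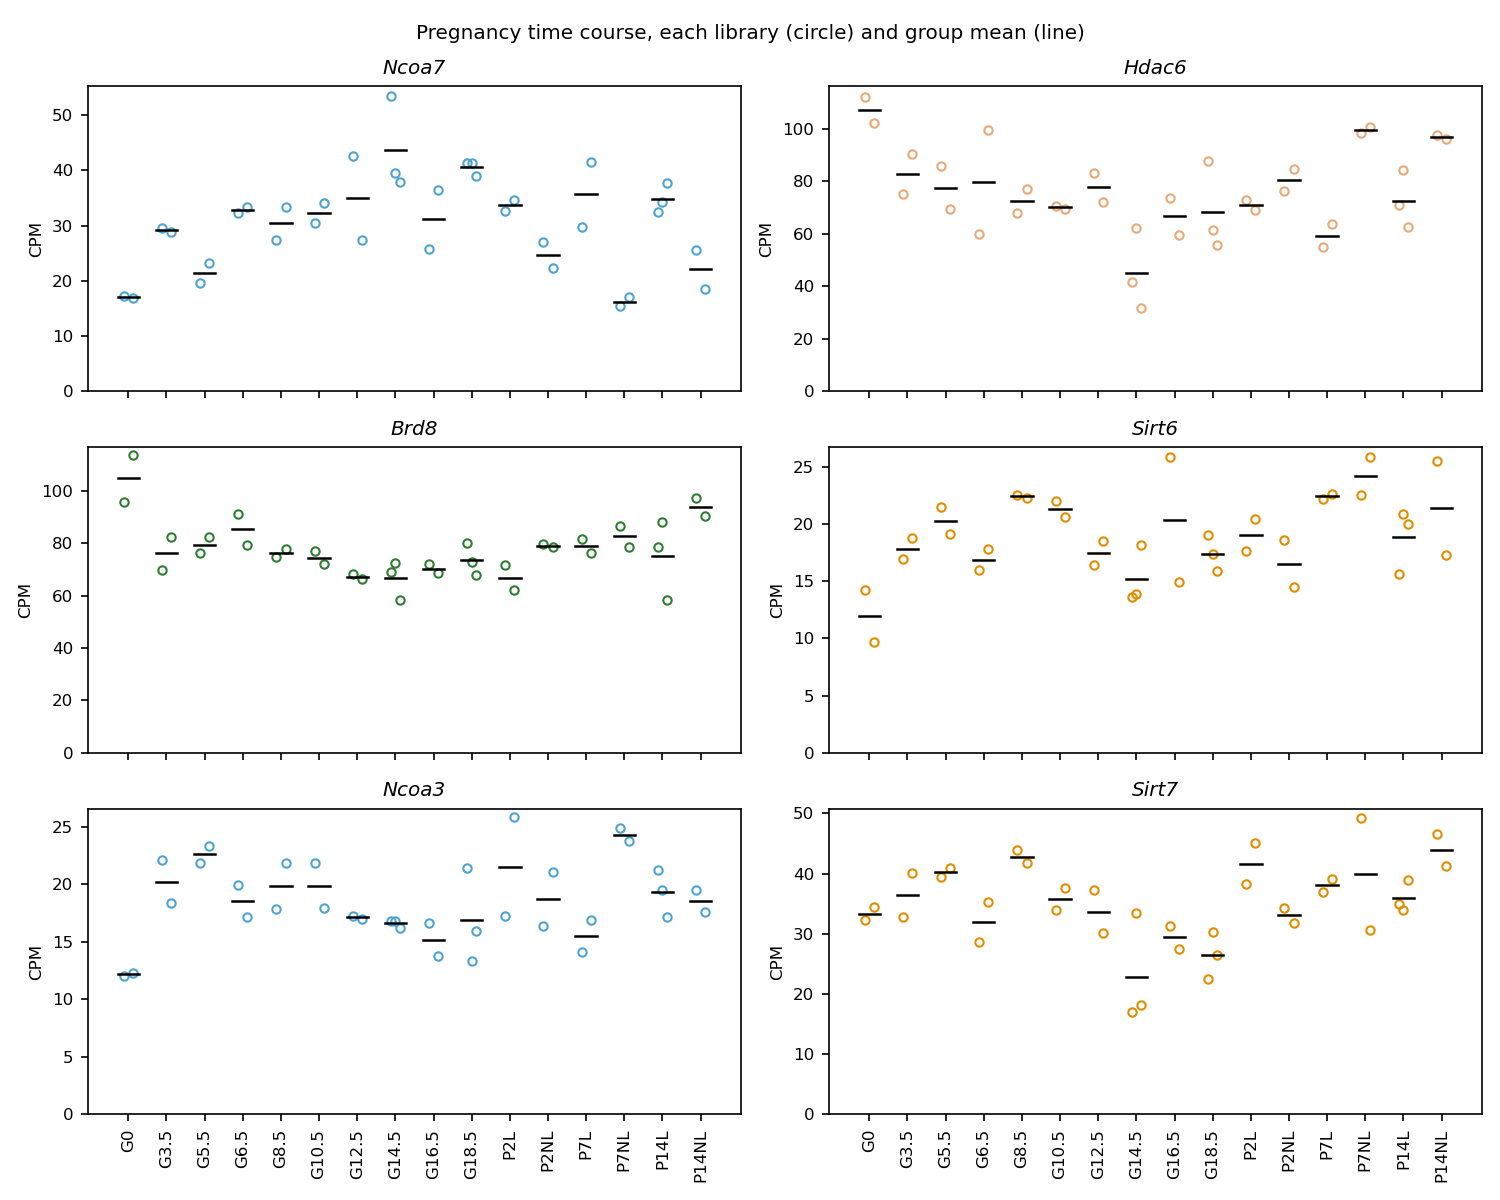
The 6 members called in at least 3 comparisons, in CPM, through the pregnancy time course; circles are libraries and lines are group means, with G0 at the left and the groups in order of time. Ncoa7 is higher than at G0 at G14.5, where its 3 libraries span 37.9 to 53.3 CPM, and Hdac6 is lower there, with 31.7 to 62.3 CPM.

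The promoter windows of the members that carry these results are shown because the files name Stat3 as one of the knocked-out genes. The motif searched was TTC, any 3 bases, then GAA, the core that STAT proteins bind, which reads alike on both strands. Sequences come from RefSeq (GRCm38.p6) and span 250 bases before to 50 bases after a start site, 5′ to 3′ on the gene's strand, with a match in capitals. Of 47 members, 38 were in that table with 60 windows, and 7 windows (11.7%) held the motif, against 2726 of 32851 windows of all genes (8.30%). Of the 9 members called at G14.5 or with A485, Ncoa7, Hdac6, Hdac11, Ing4 and Sirt7 were in the table with 6 windows, and Hdac10, Brd8 and Hdac3 are named only. The sole match among those 6 was in Sirt7, beginning 91 bases before the start site. The windows of Ncoa7, chr10:30803277-30803576 and chr10:30655818-30656117, and that of Hdac6, chrX:7947840-7948139, hold no match, which says only that these letters are not there. The window of Sirt7 is chr11:120624965-120625264.
Ncoa7, first start: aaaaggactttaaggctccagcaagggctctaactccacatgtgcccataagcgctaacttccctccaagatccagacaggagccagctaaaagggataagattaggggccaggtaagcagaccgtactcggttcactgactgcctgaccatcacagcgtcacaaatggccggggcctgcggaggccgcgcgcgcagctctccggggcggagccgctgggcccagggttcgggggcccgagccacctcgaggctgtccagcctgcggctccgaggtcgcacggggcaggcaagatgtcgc
Ncoa7, second start: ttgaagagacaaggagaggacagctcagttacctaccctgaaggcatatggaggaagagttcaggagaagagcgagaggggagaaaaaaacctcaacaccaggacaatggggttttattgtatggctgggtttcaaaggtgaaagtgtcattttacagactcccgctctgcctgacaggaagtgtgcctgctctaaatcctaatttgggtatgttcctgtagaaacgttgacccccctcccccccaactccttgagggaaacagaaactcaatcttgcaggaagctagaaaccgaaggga
Hdac6: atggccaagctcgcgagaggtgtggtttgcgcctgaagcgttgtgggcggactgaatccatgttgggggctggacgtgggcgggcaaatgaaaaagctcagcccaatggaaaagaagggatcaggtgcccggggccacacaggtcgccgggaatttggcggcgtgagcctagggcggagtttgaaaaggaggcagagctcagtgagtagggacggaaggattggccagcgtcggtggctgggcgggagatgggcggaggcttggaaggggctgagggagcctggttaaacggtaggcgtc
Sirt7: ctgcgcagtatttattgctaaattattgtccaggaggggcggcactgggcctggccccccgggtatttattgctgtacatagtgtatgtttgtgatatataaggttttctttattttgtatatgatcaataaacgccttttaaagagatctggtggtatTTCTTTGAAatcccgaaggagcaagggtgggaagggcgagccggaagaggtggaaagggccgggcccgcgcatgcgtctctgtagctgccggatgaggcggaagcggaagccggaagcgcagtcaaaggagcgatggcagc

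Hdac6, the cytoplasmic tubulin deacetylase, lies at chrX:7930120-7947889 on the minus strand, and none of its 5817 exonic bases overlap another annotated gene. It had 41.6, 62.3 and 31.7 CPM at G14.5 against 112.2 and 102.2 CPM at G0. All 3 G14.5 libraries were below both G0 libraries. The log2 fold change was -1.25 with a standard error of 0.21 (edgeR adjusted p = 0.000123), and the call held without each library in turn. A read of Hdac6 was found in 95.9%, 98.9% and 90.7% of the cells of the 3 G14.5 libraries, against every cell and 94.3% in G0 replicates 1 and 2.

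At the other days of gestation Hdac6 was below G0 without a call, between 66.7 ± 10.0 CPM at G16.5 and 82.7 ± 10.9 CPM at G3.5 (SD, n = 2), against 107.2 ± 7.07 CPM at G0 (SD, n = 2). The adjusted p of edgeR was 0.0646 at G16.5 and 0.0615 at G18.5. After delivery it was called lower at P7L, with 54.9 and 63.5 CPM (log2 fold change -0.86, edgeR adjusted p = 0.0301). That call was lost without any 1 of its 4 libraries (edgeR adjusted p = 0.0803 to 0.298). At P7NL it had 98.1 and 100.8 CPM, and at P14NL 97.4 and 95.9 CPM.

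The other 2 genes of classes IIb and IV were also called lower at G14.5. Hdac11, the class IV enzyme, had 16.3, 25.4 and 22.7 CPM at G14.5 against 34.04 and 37.7 CPM at G0 (log2 fold change -0.74, edgeR adjusted p = 0.0126). The call was lost without G0 replicate 2 (edgeR adjusted p = 0.116) or G14.5 replicate 1 (0.0861), and 690 of its 3849 exonic bases (17.9%) overlap genes on the opposite strand, whose reads cannot be told apart where counting used no strand. Hdac10, an enzyme of polyamine deacetylation, had 6.03, 10.3 and 7.89 CPM against 11.4 and 21.8 CPM (log2 fold change -1.03, edgeR adjusted p = 0.0338). The 3 G14.5 libraries of Hdac10 were below both G0 libraries, and the G0 pair differed from each other by more than G0 replicate 1 did from the highest G14.5 library. Without G0 replicate 2 its log2 fold change was -0.50 and its edgeR adjusted p 0.539, without G14.5 replicate 1 it was 0.147 and without replicate 3 it was 0.0960.

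Brd8 was called lower at 6 points of the time course: G12.5, G14.5, G16.5, G18.5, P2L and P14L, with log2 fold changes between -0.65 and -0.48. It had 69.1, 72.4 and 58.5 CPM at G14.5 against 95.9 and 113.95 CPM at G0 (edgeR adjusted p = 0.00155). No library of those 6 groups was above 88.1 CPM. Without G0 replicate 2, the higher of the pair, none of the 6 calls held, with edgeR adjusted p of 0.161 at G12.5, 0.0636 at G14.5, 0.200 at G16.5, 0.345 at G18.5, 0.201 at P2L and 0.453 at P14L. Calls were also lost without a library of the day itself: G12.5 replicate 1 or 2 (0.0652 and 0.0882), G16.5 replicate 1 or 2 (0.0584 and 0.132), G18.5 replicate 3 (0.112), P2L replicate 2 (0.261) and P14L replicate 1 or 3 (0.0634 and 0.223). Without cells of other hormones the log2 fold change at P14L was -0.47, against -0.48 with them (edgeR adjusted p = 0.0556 without them).

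Sirt6, a chromatin-bound deacetylase, was called higher at G8.5, G10.5, G16.5, P7L and P7NL. It had 22.6 and 22.3 CPM at G8.5, 22.02 and 20.6 at G10.5, 25.8 and 14.9 at G16.5, 22.2 and 22.6 at P7L and 22.5 and 25.9 at P7NL, against 14.2 and 9.66 CPM at G0. The log2 fold changes were 0.90, 0.83, 0.76, 0.90 and 1.01, with edgeR adjusted p of 0.0156, 0.0438, 0.0367, 0.0215 and 0.0444. None of the 5 calls of Sirt6 held without G0 replicate 2, the lower of the pair, with edgeR adjusted p from 0.247 at G8.5 to 0.410 at P7NL. All were also lost without at least 1 library of the later group: replicate 1 or 2 at G8.5 (0.0786 and 0.0639), at G10.5 (0.242 and 0.137), at P7L (0.112 and 0.126) and at P7NL (0.0593 and 0.438), and replicate 1 at G16.5 (0.589, with a log2 fold change of 0.32). Without cells of other hormones the log2 fold change at G10.5 was 0.81, against 0.83 with them (edgeR adjusted p = 0.0554 without them).

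Ncoa3, a p160 coactivator, was called higher at G5.5, G8.5, P2L and P7NL. It had 21.9 and 23.4 CPM at G5.5, 17.9 and 21.9 at G8.5, 17.2 and 25.9 at P2L and 24.9 and 23.8 at P7NL, against 11.996 and 12.3 CPM at G0. The log2 fold changes were 0.90, 0.71, 0.83 and 1.00, with edgeR adjusted p of 0.0264, 0.0415, 0.0256 and 0.0284. At G5.5, G8.5 and P7NL the call of Ncoa3 was lost without any 1 of its 4 libraries, with edgeR adjusted p of 0.0871 to 0.184, 0.0659 to 0.273 and 0.0836 to 0.209. At P2L it was lost without G0 replicate 1 or 2 (0.131 and 0.144) or P2L replicate 2 (0.669, with a log2 fold change of 0.49). In the 11 groups without a call Ncoa3 ran from 13.3 to 22.1 CPM, so that every library after G0 was above both G0 libraries.

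Sirt7, called outside the time course, was called at none of its points. It had 17.03, 33.4 and 18.2 CPM at G14.5 against 32.3 and 34.4 CPM at G0 (log2 fold change -0.54, edgeR adjusted p = 0.0904), with replicate 2 of G14.5 inside the range of G0 and the other two libraries below it. The other groups ran from 22.4 to 49.2 CPM.

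Other members were called once or at a pair of points. Ing2, which brings the Sin3 deacetylase complex to chromatin, had 23.1 and 21.4 CPM at G12.5 and 24.8 and 22.5 CPM at G16.5, against 33.3 and 51.1 CPM at G0 (log2 fold change -0.92 and -0.83, edgeR adjusted p = 0.0133 and 0.0204). Both calls of Ing2 were lost without G0 replicate 2 (log2 fold change -0.58 and -0.49, edgeR adjusted p = 0.306 and 0.372), without replicate 1 of the day (0.0680 and 0.0631) and without replicate 2 of the day (0.117 and 0.161). Sirt2 had 50.6 and 49.8 CPM at P2L and 51.1, 45.8 and 50.1 CPM at P14L, against 36.4 and 29.2 CPM at G0 (log2 fold change 0.61 and 0.57, edgeR adjusted p = 0.0469 and 0.0349). The P2L call of Sirt2 was lost without any 1 of its 4 libraries (edgeR adjusted p = 0.0502 to 0.406), with RLE scaling (0.0542), without Ins1 and Ins2 (0.0502) and without cells of other hormones (0.0519), and the P14L call without G0 replicate 2 (0.431) or P14L replicate 1 or 3 (0.0988 and 0.0834).

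Hdac3, the enzyme of the NCoR complexes, had 23.5 and 18.4 CPM at G8.5 against 29.7 and 37.7 CPM at G0 (log2 fold change -0.68, edgeR adjusted p = 0.0469). Its call was lost without G0 replicate 2 (edgeR adjusted p = 0.361) or G8.5 replicate 1 or 2 (0.0683 and 0.331). At G8.5, 5 of 12 hepatocyte markers were also called higher, with 1572 to 1767 CPM summed over the list at G8.5 against 974 to 1493 CPM at G0, and their part in the result was not tested. Ing4 had 34.05, 37.7 and 29.7 CPM at G14.5 against 50.9 and 45.8 CPM at G0 (log2 fold change -0.52, edgeR adjusted p = 0.0293), and 1855 of its exonic bases overlap Gm44597 on the same strand. Its call was lost without G0 replicate 1 or 2 (edgeR adjusted p = 0.208 and 0.0730) or G14.5 replicate 1 or 3 (0.0665 and 0.139).

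The step from G0 to G14.5 was sampled in 9 further sets of libraries with G0 libraries of their own: knockouts and wild types of Acss2, Stat3 and p300, mice on a high-fat diet, and Acss2 knockouts and wild types on that diet. Ncoa7 was higher at G14.5 in all 10 sets, the time course included, with log2 fold changes from 0.48 to 1.88, and was called in 5. Hdac6 was lower in all 10, from -1.25 to -0.49, and was called in 6. Of the 40 members listed in all 10 sets, 2 were higher in every set (Ncoa7 and the acetyltransferase Hat1) and 2 were lower in every set (Hdac6 and Sirt7). Hat1, which acetylates newly made histones, was called in none of them and its log2 fold change ran from 0.01 to 0.98. That of Sirt7 ran from -1.04 to -0.03, with a call in 1 set. The share of all genes with the same sign in every set is not given here.

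In Acss2 wild types, Ncoa7 had 44.5 and 52.8 CPM at G14.5 and 37.1 and 39.9 CPM at G18.5, against 12.6 and 13.8 CPM at G0. Hdac6 had 51.3 and 54.7 CPM at G14.5 and 47.8 and 43.9 CPM at G18.5, against 127.9 and 99.5 CPM at G0. At G14.5 these 2 of 47 members were called (4.26%), against 2.92% of all genes, with log2 fold changes of 1.88 and -1.10 (edgeR adjusted p = 4.44e-05 and 0.000938). At G18.5, 3 members were called against 6.89% of all genes: Ncoa7 (1.54, edgeR adjusted p = 0.000263), Hdac6 (-1.31, edgeR adjusted p = 0.000170) and Hdac5 (-0.68, edgeR adjusted p = 0.0288). All 4 calls of Ncoa7 and Hdac6 held without each library. Hdac5, a class IIa deacetylase, had 41.2 and 44.2 CPM at G18.5 against 68.8 and 67.95 CPM at G0, and its call was lost without any 1 of its 4 libraries (edgeR adjusted p = 0.0884 to 0.163). At G18.5, 5 of 11 hepatocyte markers tested, both PP-cell markers, 2 of 9 α-cell and 2 of 5 δ-cell markers were also called lower than at G0, and 3 of 11 acinar markers higher. Hepatocyte markers summed to 265.9 to 436 CPM at G18.5 against 1175 to 1244 CPM at G0, PP-cell markers to 29.4 to 93.7 CPM against 517 to 1190 CPM and acinar markers to 2.43 to 30.3 CPM against 0.985 to 1.19 CPM, and their part in the result was not tested.

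In Acss2 knockouts, 4 members were called at G14.5 against G0, and 4.35% of all genes. Ncoa7 had 33.97 and 31.6 CPM at G14.5 against 10.1 and 15.5 CPM at G0 (log2 fold change 1.35, edgeR adjusted p = 0.000958), a call that held without each library. Hdac6 had 58.7 and 51.4 CPM against 87.3 and 84.2 CPM (-0.64, edgeR adjusted p = 0.0378). Brd1, the scaffold of acetyltransferase complexes, had 20.1 and 17.9 CPM against 30.6 and 31.3 CPM (-0.71, edgeR adjusted p = 0.0423), and Ncoa1 had 47.5 and 44.997 CPM against 64.7 and 71.4 CPM (-0.56, edgeR adjusted p = 0.0387). The calls of Hdac6, Brd1 and Ncoa1 were each lost without any 1 of their 4 libraries, with edgeR adjusted p of 0.123 to 0.314, 0.147 to 0.306 and 0.112 to 0.323. Both PP-cell markers, 3 of 9 α-cell markers and 3 of 11 hepatocyte markers were also called lower at G14.5, and their part in the result was not tested.

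In Stat3 wild types Hdac6 had 66.04 and 64.5 CPM at G14.5 and 60.5 and 81.4 CPM at G18.5, against 134.02 and 170 CPM at G0. The log2 fold changes were -1.22 and -1.10 (edgeR adjusted p = 0.00332 and 0.00634). At G14.5 the coactivator Ncoa1 was also called, with 60.9 and 57.2 CPM against 95.4 and 102.3 CPM at G0 (-0.74, edgeR adjusted p = 0.0309). These were 2 of 40 members against 1.74% of all genes at G14.5, and 1 of 40 against 2.06% at G18.5. Hdac6 lost its call without G0 replicate 2 (edgeR adjusted p = 0.0527 at G14.5 and 0.0975 at G18.5) and, at G18.5, without replicate 1 of that day (0.0793), and Ncoa1 without any 1 of its 4 libraries (0.0826 to 0.236). Ncoa7 had 46.7 and 43.4 CPM at G14.5 against 30.6 and 25.6 CPM at G0, which was not called (log2 fold change 0.68, edgeR adjusted p = 0.161).

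In Stat3 knockouts, Ncoa7 had 49.97 and 70.1 CPM at G14.5 against 16.455 and 22.8 CPM at G0 (log2 fold change 1.61, edgeR adjusted p = 0.000858), and the call held without each library. Hdac6 had 56.7 and 56.4 CPM against 131.2 and 98.6 CPM (-1.02, edgeR adjusted p = 0.0129), a call lost without G0 replicate 1 (0.120) or G14.5 replicate 1 or 2 (0.0561 and 0.0623). They were 2 of 40 members, against 1.70% of all genes.

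**Figure D4:**
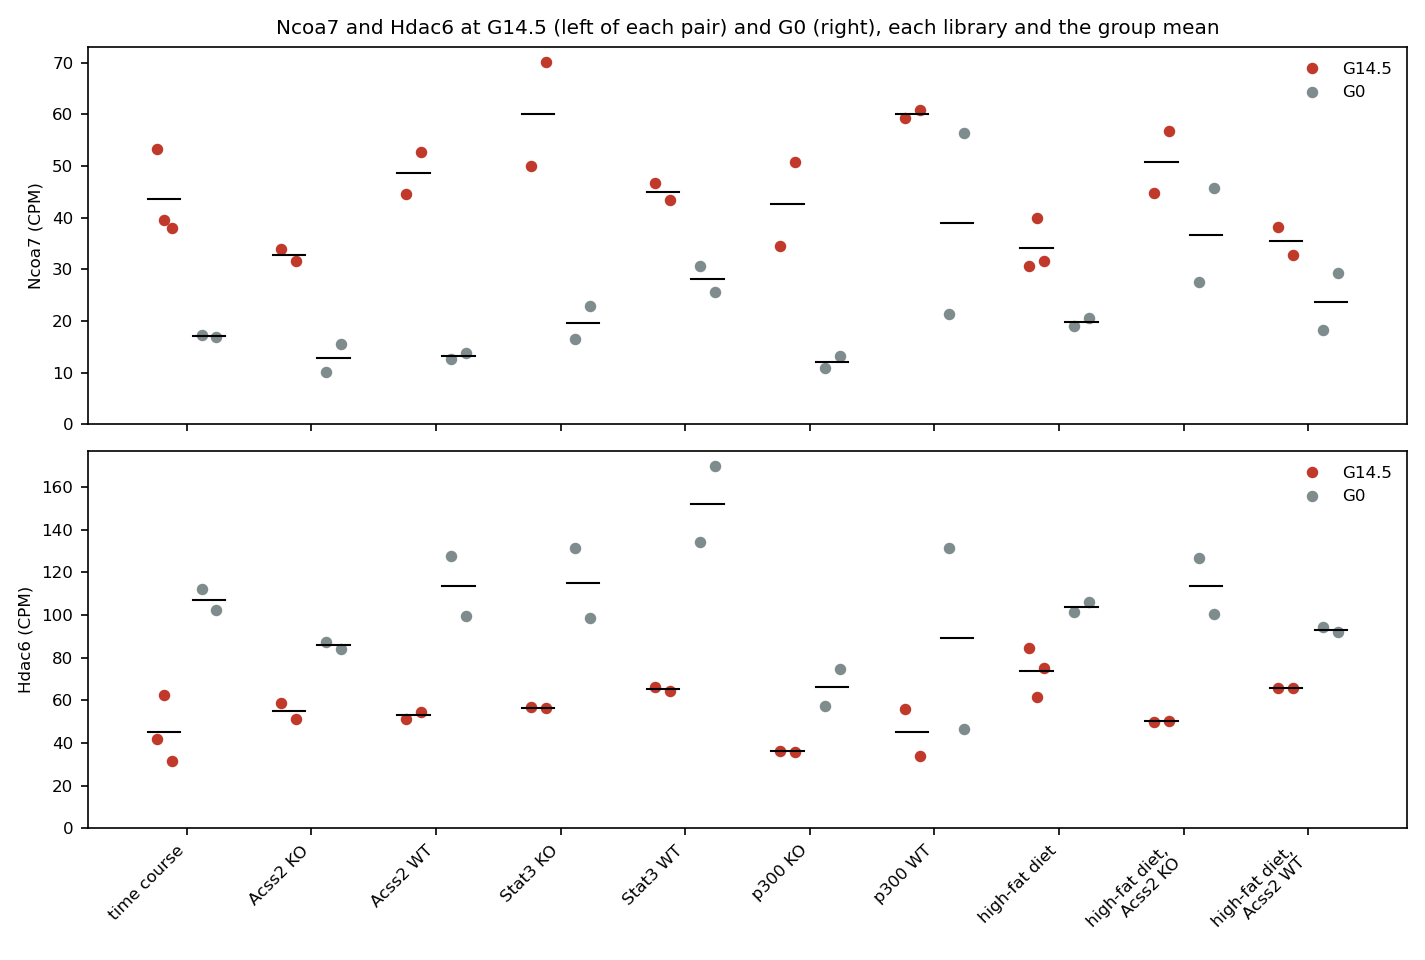
Ncoa7 (top) and Hdac6 (bottom) in CPM at G14.5 (red, left of each pair) and at G0 (grey, right) in the 10 sets of libraries; points are libraries and lines are group means. Ncoa7 averages higher and Hdac6 lower at G14.5 in each set, and the G0 library of replicate 2 in p300 wild types, with 56.4 CPM of Ncoa7 and 46.5 CPM of Hdac6, lies near the G14.5 libraries.

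In p300 knockouts 3 members rose at G14.5 against G0, and 3.27% of all genes were called. Ncoa7 had 34.4 and 50.8 CPM at G14.5 against 10.9 and 13.2 CPM at G0 (log2 fold change 1.82, edgeR adjusted p = 0.0155). Kat2b, the acetyltransferase PCAF, had 29.6 and 26.7 CPM against 16.7 and 13.8 CPM (0.88, edgeR adjusted p = 0.0338), and the corepressor Ncor1 had 124.55 and 145.6 CPM against 87.2 and 87.2 CPM (0.63, edgeR adjusted p = 0.0491). The call of Ncoa7 was lost without G0 replicate 1 (edgeR adjusted p = 0.103), and those of Kat2b and Ncor1 without any 1 of their 4 libraries (0.103 to 0.250 and 0.125 to 0.404). In this comparison the PP-cell markers Ppy and Pyy, the α-cell markers Gcg and Ttr and the δ-cell marker Sst were also called lower. PP-cell markers summed to 8.26 to 9.37 CPM at G14.5 against 296 to 379.7 CPM at G0, and their part in the result was not tested. In p300 wild types 0 of 47 members and 2.15% of all genes were called by edgeR, with 10 members at an unadjusted p under 0.05 and 2 called by DESeq2. Over all 13475 genes tested in p300 wild types, 2383 had an unadjusted p under 0.05 and DESeq2 called 1014. The markers Ppy, Pyy, Gcg, Ttr and Sst were called lower at G14.5 in p300 wild types too, as was the α-cell marker Slc7a2. The G0 library of replicate 2 there had 56.4 CPM of Ncoa7 against 21.3 CPM in replicate 1, and 46.5 CPM of Hdac6 against 131.6 CPM. Tph1 was at 0.705 CPM in that library, within the range of the other G0 libraries. Counts of members from refits without 1 library are given at the end without the share of all genes, and are not read as a result.

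The targeted genes averaged lower in the knockouts and were still present. Acss2 had 11.3 and 9.76 CPM in Acss2 knockouts and 17.996 and 26.1 CPM in wild types at G0, 17.9 and 19.03 CPM against 25.5 and 38.5 CPM at G14.5, and 21.7 and 15.8 CPM against 27.3 and 32.2 CPM at G18.5, with no call by edgeR (adjusted p = 1.00, 0.299 and 0.296). Stat3 had 66.1 and 49.4 CPM in Stat3 knockouts and 65.9 and 70.8 CPM in wild types at G0, 67.4 and 73.7 CPM against 80.3 and 90.2 CPM at G14.5, and 60.7 and 67.5 CPM against 78.3 and 86.5 CPM at G18.5 (edgeR adjusted p = 0.739, 0.711 and 1.00). Ep300 had 15.9 and 11.9 CPM in p300 knockouts and 24.2 and 36.7 CPM in wild types at G0, and 20.4 and 19.7 CPM against 27.5 and 37.2 CPM at G14.5 (edgeR adjusted p = 0.0524 and 0.369). Counts over a whole gene keep the reads outside a deleted part, and the sources used here do not give which part was deleted, so these values do not check the labels.

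Between knockout and wild type at the same day, few members were called. In Acss2 knockouts against wild types 0 of 47 members were called by edgeR at G0, G14.5 and G18.5, against 0.00711%, 0.0213% and 0.149% of all genes, with 2, 5 and 5 members at an unadjusted p under 0.05 and 0, 0 and 1 called by DESeq2. Over all 14057 genes, 375, 1472 and 1536 had an unadjusted p under 0.05 and DESeq2 called 6, 165 and 356. In Stat3 knockouts against wild types 0 of 40 members were called at the same days, against 0%, 0.0098% and 0.0196% of all genes, with 3, 6 and 1 at an unadjusted p under 0.05 and 0 called by DESeq2 at each day. There, 830, 875 and 507 of all 10207 genes had an unadjusted p under 0.05 and DESeq2 called 84, 64 and 30. In p300 knockouts against wild types at G0, 2 of 47 members were called against 1.54% of all genes. Ncoa7 had 10.9 and 13.2 CPM in p300 knockouts against 21.3 and 56.4 CPM in wild types (log2 fold change -1.69, edgeR adjusted p = 0.0369). Kat2b had 16.7 and 13.8 CPM in p300 knockouts against 31.7 and 28.8 CPM in wild types (-0.99, edgeR adjusted p = 0.0348). The Ncoa7 call was lost without knockout replicate 1 or 2 (edgeR adjusted p = 0.170 and 0.0954) or wild-type replicate 2 (0.124, with a log2 fold change of -0.82), and that of Kat2b without knockout replicate 1 or 2 (0.0926 and 0.191) or wild-type replicate 1 (0.0813). At G14.5, 0 of 47 members and 0% of all genes were called, with 4 members at an unadjusted p under 0.05 and 0 called by DESeq2. Over all 13475 genes, 1333 had an unadjusted p under 0.05 at that day and DESeq2 called 293. Kat2b had 29.6 and 26.7 CPM in p300 knockouts and 33.8 and 33.2 CPM in wild types at that day. Ncoa7 was called in no comparison of Acss2 or Stat3 knockouts with wild types. It had 58.2 and 49.2 CPM in Acss2 knockouts against 37.1 and 39.9 CPM in wild types at G18.5 (log2 fold change 0.48, edgeR adjusted p = 0.384), and 33.97 and 31.6 CPM against 44.5 and 52.8 CPM at G14.5 (-0.57, edgeR adjusted p = 0.368). The groups did not overlap at either day, and the sign of the difference was opposite between them.

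On the high-fat diet, the step from G0 to G14.5 gave 0 of 47 members in mice with no named genotype, against 1.95% of all genes, and 0 in Acss2 wild types, against 1.93%, with 13 and 6 members at an unadjusted p under 0.05 and 2 and 1 called by DESeq2. Over all 14115 genes, 2178 and 1984 had an unadjusted p under 0.05 and DESeq2 called 716 and 630. Ncoa7 had 30.6, 40.0 and 31.7 CPM at G14.5 against 19.1 and 20.7 CPM at G0 in mice with no named genotype, and Hdac6 84.5, 61.8 and 75.1 CPM against 101.4 and 105.98 CPM. Neither gene overlapped between the days in that set, and neither was called (edgeR adjusted p = 0.110 and 0.195). In Acss2 knockouts on this diet 3 members fell, against 3.85% of all genes called. Hdac11 had 18.54 and 19.9 CPM at G14.5 against 45.8 and 42.9 CPM at G0 (log2 fold change -1.21, edgeR adjusted p = 0.00236). Hdac6 had 49.8 and 50.3 CPM against 126.5 and 100.3 CPM (-1.18, edgeR adjusted p = 0.00406), and Sirt7, a nucleolar deacetylase, had 27.1 and 30.997 CPM against 57.1 and 62.1 CPM (-1.04, edgeR adjusted p = 0.00370). The calls of Hdac11 and Hdac6 held without each library, and that of Sirt7 was lost without G14.5 replicate 1 (edgeR adjusted p = 0.0749). In this comparison 5 of 9 α-cell markers, Gcg among them, were also called lower, and their part in the result was not tested.

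Hdac11 was not called in mice with no named genotype on the diet, where it had 39.1, 40.0 and 44.8 CPM at G14.5 against 25.5 and 31.5 CPM at G0 (log2 fold change 0.53, edgeR adjusted p = 0.145). It had 22.2 and 26.987 CPM at G14.5 against 40.1 and 29.7 CPM at G0 in Acss2 wild types on the diet (-0.51, edgeR adjusted p = 0.232). The difference between Acss2 knockouts and wild types in this step was not called (interaction -0.70, edgeR adjusted p = 0.627), and that from the mice with no named genotype was not tested. At P7NL against G0 on the high-fat diet 0 of 47 members and 0% of all genes were called, with 3 members at an unadjusted p under 0.05 and 1 called by DESeq2. Acss2 knockouts against wild types on the diet gave 0 members at G0, against 0% of all genes, and 0 at G14.5, against 0.0638%, with 3 and 4 members at an unadjusted p under 0.05 and 0 called by DESeq2 at both days. Of all 14115 genes, 759 had an unadjusted p under 0.05 at P7NL and DESeq2 called 34. Between those knockouts and wild types, 1094 and 1195 genes had such a p and DESeq2 called 78 and 79. Acss2 itself was called lower at G14.5 there, with 17.3 and 16.4 CPM in knockouts against 48.1 and 41.9 CPM in wild types. High-fat against standard diet in Acss2 wild types at G14.5 gave 0 members against 0.213% of all genes, with 11 members at an unadjusted p under 0.05 and 4 called by DESeq2. Over all 14115 genes, 1733 had an unadjusted p under 0.05 between the diets and DESeq2 called 394.

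Brd8, called in the time course, was called in none of the other sets. Its log2 fold change between G14.5 and G0 was -0.02 in Acss2 wild types, -0.01 in Stat3 wild types, -0.02 in p300 wild types and 0.08 on the high-fat diet, and ran from -0.24 to 0.08 over the 9 sets, with edgeR adjusted p from 0.501 upward. In Acss2 wild types Brd8 had 66.8 and 70.1 CPM at G14.5 against 69.2 and 69.5 CPM at G0, and in the time course 69.1, 72.4 and 58.5 CPM against 95.9 and 113.95 CPM. Tables were scaled separately, so levels across them are set side by side only. Ing4 and Hdac10, called at G14.5 in the time course alone, were called in none of the other sets.

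In the cultures the members called belonged to the deacetylases. A485 inhibits the acetyltransferase activity of p300 and its relative CBP. Sirt7 had 69.2 and 70.5 CPM with A485 in normal serum against 41.3 and 41.3 CPM with the vehicle (log2 fold change 0.76, edgeR adjusted p = 0.0362). In maternal serum Sirt7 had 60.8 and 55.3 CPM with A485 against 40.6 and 31.7 CPM with the vehicle (0.68, edgeR adjusted p = 0.0421). In each serum both A485 libraries were above both vehicle libraries. Those were 1 of 47 members against 2.57% of all genes in normal serum, and 2 of 47 against 3.30% in maternal serum. The second was Hdac3, with 59.6 and 44.1 CPM with A485 against 24.1 and 32.2 CPM with the vehicle in maternal serum (0.88, edgeR adjusted p = 0.0414). Hdac3 had 36.9 and 32.3 CPM with A485 against 26.3 and 27.1 CPM in normal serum (0.37, edgeR adjusted p = 0.397), and the difference of its response between the sera was not called (edgeR adjusted p = 0.980).

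The A485 calls rest on few libraries. Sirt7 in normal serum was lost without any 1 of its 4 libraries (edgeR adjusted p = 0.0783 to 0.165), Sirt7 in maternal serum without A485 replicate 1 or 2 (0.210 and 0.101) or vehicle replicate 2 (0.217), and Hdac3 without A485 replicate 1 (0.289) or vehicle replicate 1 (0.237). Exons of Sirt7 share 178 of 5148 bases with Mafg and Mir6936 on the same strand. Ins1, Ins2, Iapp and Slc2a2 of the β-cell markers were called lower with A485 in both sera, and leaving Ins1 and Ins2 out of the libraries changed none of these 3 calls. The α-cell markers Gc and Tm4sf4, the δ-cell marker Pdyn and the immune marker C1qa were also called lower in both sera. In normal serum Sst and Krt7 were lower as well, and in maternal serum 2 of 11 hepatocyte markers were lower and 1 higher. Summed δ-cell markers ran from 20.6 to 3395 CPM over these cultures. The part of these markers in the result was not tested. Ep300 had 58.03 and 61.6 CPM with A485 and 48.4 and 51.4 CPM with the vehicle in normal serum.

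Nifuroxazide is known as an inhibitor of STAT3 signalling. It gave 0 of 47 members against the vehicle in normal serum, against 1.99% of all genes, and 0 in maternal serum, against 0.697%, with 5 and 3 members at an unadjusted p under 0.05 and 2 and 0 called by DESeq2. Of all 13481 genes, 2064 and 1336 had an unadjusted p under 0.05, and DESeq2 called 777 and 364. Sirt7 had 62.4 and 85.3 CPM with nifuroxazide against 48.8 and 67.1 CPM with the vehicle in normal serum, and 60.2 and 69.5 CPM against 36.3 and 44.8 CPM in maternal serum (log2 fold change 0.35 and 0.68, edgeR adjusted p = 0.509 and 0.293). Hdac3 had 30.9 and 26.6 CPM with nifuroxazide against 33.9 and 43.3 CPM with the vehicle in normal serum, and 25.5 and 27.1 CPM against 36.6 and 39.6 CPM in maternal serum (-0.42 and -0.53, edgeR adjusted p = 0.407 and 0.454). The 2 compounds differ in dose and were run with vehicle libraries of their own, so no comparison between them was made.

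**Figure D5:**
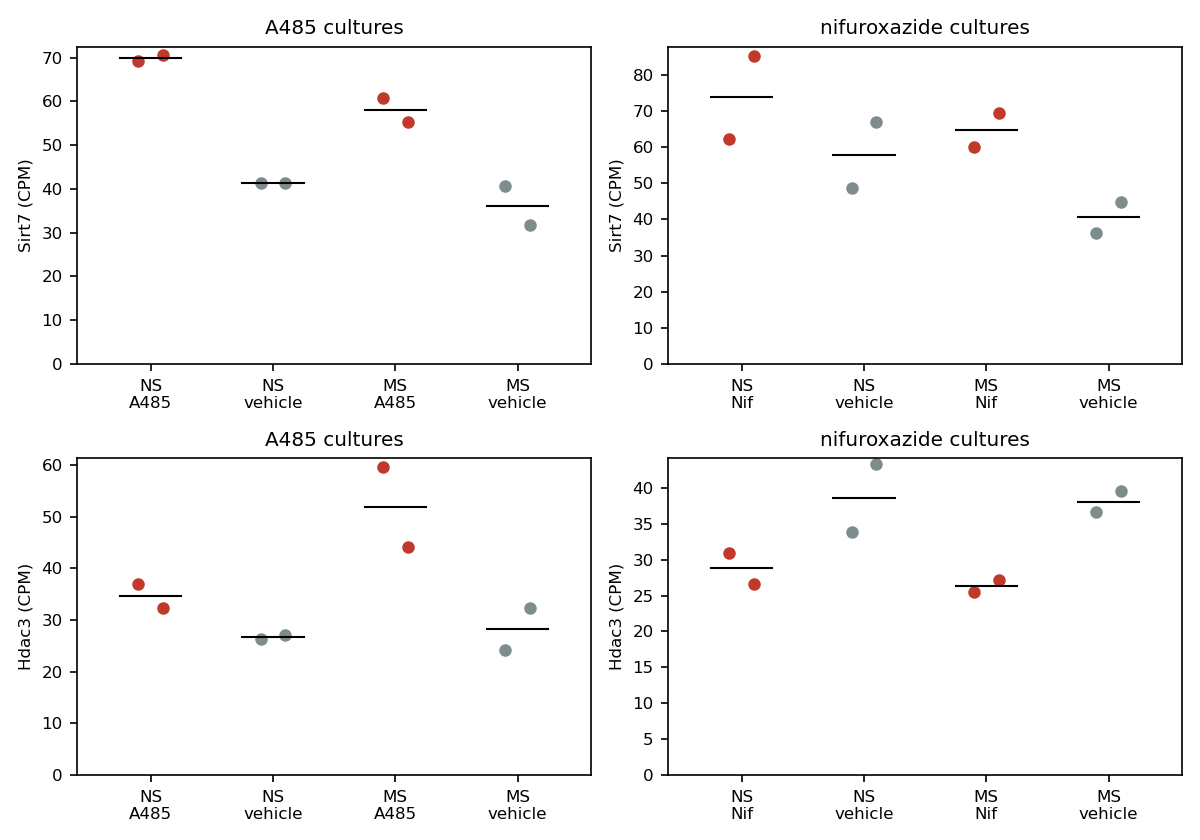
Sirt7 (top) and Hdac3 (bottom) in CPM in cultured islets with A485 (left panels) or nifuroxazide (Nif, right panels), in normal (NS) and maternal (MS) human serum. Points are libraries, red with the compound and grey with its vehicle, and lines are means; Sirt7 with A485 spans 55.3 to 70.5 CPM, above the vehicle libraries at 31.7 to 41.3 CPM.

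Maternal against normal serum gave 0 of 47 members in every culture. With the vehicle of A485 0.657% of all genes were called, with 8 members at an unadjusted p under 0.05 and 1 called by DESeq2. Under A485 0.288% were called, with the vehicle of nifuroxazide 1.02% and under nifuroxazide 0.490%, with 3, 2 and 2 members at an unadjusted p under 0.05 and 0 called by DESeq2 in each. In that order, 1632, 1174, 1303 and 1351 of all genes had an unadjusted p under 0.05, and DESeq2 called 354, 201, 415 and 238. Ncoa7 had 24.1 and 36.6 CPM in maternal serum with the vehicle of A485 against 14.46 and 20.2 CPM in normal serum (log2 fold change 0.80, edgeR adjusted p = 0.296). It had 32.8 and 27.1 CPM in maternal serum with the vehicle of nifuroxazide against 31.2 and 20.6 CPM in normal serum (0.21, edgeR adjusted p = 0.917).

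Whether a knockout changed the gestational step, or a serum the response to a compound, was tested as an interaction. No member was called in any of the 6 by edgeR. All genes called came to 0.0213% for the Acss2 knockout, 0% for the Stat3 knockout, 0.0668% for the p300 knockout, 0.0142% for the Acss2 knockout on the high-fat diet, 0.00738% for A485 by serum and 0% for nifuroxazide by serum. The members at an unadjusted p under 0.05 were 0, 6, 6, 4, 3 and 1 in that order, and DESeq2 called 1 for the Stat3 knockout and 0 for the others. Of all genes, 855, 809, 1399, 1088, 633 and 886 had an unadjusted p under 0.05, and DESeq2 called 33, 49, 180, 43, 11 and 72. Ncoa7 had an interaction of 0.93 with a standard error of 0.32 for the Stat3 knockout (edgeR adjusted p = 0.508), 1.198 with 0.49 for p300 (0.430) and -0.53 with 0.29 for Acss2 (0.825). Hdac6 had 0.46 with 0.23 for Acss2, 0.20 with 0.28 for Stat3 and 0.10 with 0.52 for p300 (edgeR adjusted p = 0.825, 0.897 and 0.983).

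The partners of these enzymes were taken as 4 lists. These were 51 genes of acetyltransferases and their complexes, 32 of deacetylase complexes, 24 other bromodomain, YEATS and PHD readers, and 8 of acetyl-CoA supply. At G14.5 against G0, all but 3 of them, from the list of acetyltransferases, were tested, and 10 rose and 9 fell, where 10.1% of all genes were called. In the complexes of acetyltransferases 3 rose and 1 fell, in those of deacetylases 3 rose and 4 fell, among the readers 3 rose and 3 fell, and in acetyl-CoA supply 1 rose and 1 fell. Atad2, a bromodomain ATPase, rose with a log2 fold change of 1.81 (edgeR adjusted p = 0.00601), and Msl3 of the MSL complex by 0.86 (0.0419). Rcor2 of the CoREST complex fell by 1.84 (0.0292) and Jade2 of the HBO1 complexes by 0.86 (0.0107).

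At other days these lists gave up to 9 calls, at G16.5, where 5 genes rose and 4 fell and 7.25% of all genes were called. Jade3, a scaffold of HBO1 complexes, was called lower at G8.5, G12.5, G16.5 and P7L with log2 fold changes of -1.34, -0.95, -1.22 and -0.91 (edgeR adjusted p = 0.000646, 0.0143, 0.00132 and 0.0232). In Acss2 wild types Jade3 was called lower at G14.5 and G18.5 (-1.15 and -1.31), in Acss2 knockouts at G14.5 (-1.52) and on the high-fat diet at G14.5 (-1.34). With A485, Acly, the enzyme that makes acetyl-CoA from citrate, was called lower in both sera, with log2 fold changes of -0.92 in normal and -1.06 in maternal serum (edgeR adjusted p = 0.00791 and 0.00274). Slc25a1, the mitochondrial citrate carrier, was called higher in normal serum (0.66, edgeR adjusted p = 0.0296), and Crebbp, which encodes CBP, in maternal serum (0.70, edgeR adjusted p = 0.0365). Knockouts of p300 at G0 had 3 of 110 genes of the lists lower than wild types, where 1.54% of all genes were called: Tbl1xr1 (-1.90), Mier1 (-0.90) and Mbd2 (-0.76), all of deacetylase complexes (edgeR adjusted p = 0.0143, 0.0481 and 0.0473). That comparison includes the wild-type G0 library of replicate 2, which differed from replicate 1 in Ncoa7 and Hdac6. Whether the calls of these lists hold without single libraries is not given.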

How the data were processed

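The authors deposited tables of read counts per gene and cell, with the gene length in bases as another column, per the file headers. The submitters' processing notes name Trimmomatic 0.39, featureCounts 2.0.1, Cell Ranger 3.1.0 and GRCm38 (mm10). The sources used here name no aligner, annotation or use of strand. Deposited per-cell normalized tables were not used, and 2 droplet samples were not analysed here. The tables' cells were assigned to groups and replicates by their labels, and 0 columns belonged to no sample. A gene with missing values was dropped from the Stat3 table, and another from the p300 table.

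Counts were summed per group and replicate into 100 libraries, since cells are not replicates. Each of the 7 tables was fitted in 1 model with edgeR 4.0.16 (quasi-likelihood test, TMM scaling, filterByExpr, Benjamini-Hochberg adjustment over all genes of a comparison, R 4.3.3), and a gene was called at an adjusted p under 0.05. CPM are counts per 1e6 reads at TMM-scaled library sizes, and levels per length divide them by the deposited gene length. DESeq2 1.42.0, RLE scaling, no filter, a replicate block, removal of Ins1 and Ins2, removal of cells with over 5% of reads in other islet hormones and leaving out each replicate were the alternatives. Where a group of 2 lost a library, the lone sample was assumed to vary like the other groups. The p-values measure the spread between these libraries. The labels mark replicates 1 and 2 as biological without saying whether they came from separate mice, so how far that spread is technical is not known. Replicate 3, in the 4 groups that have one, lacks the word in its label that marks the others as biological.

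Each called member of a comparison was named, or, past 6 of them, the top 3 and bottom 3 by fold change; members called in 3 or more comparisons were followed through the time course, and the highest and lowest member of each role was named at G0. Results of 2 members are not reported here by name, and both stay in the counts. The members and lists were chosen with earlier results of these data known.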

Additional observations from a re-analysis of the deposited data

How the results depend on the processing

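Of the 62 calls, DESeq2 kept 62, RLE scaling 61, no filter on low counts 61, leaving out Ins1 and Ins2 61, leaving out cells of other hormones 59 and the replicate block 53. Leaving out 1 replicate kept 44.2% of 260 values, and 12 of 62 calls were kept under every alternative: Ncoa7 and Hdac6 at G14.5, Ncoa7 at G18.5 and P14L, both genes in Acss2 wild types at G14.5 and G18.5, Ncoa7 in Acss2 and Stat3 knockouts at G14.5, and Hdac6 and Hdac11 in Acss2 knockouts on the high-fat diet. Of 639 values of these calls 0 changed sign. Libraries held 13273435 to 181405413 reads, and the effect of depth on the calls was not tested. Counts below come from fits with fewer or more genes or samples.

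Same-numbered libraries correlated between -0.12 and 0.143 in their deviations, over at most 2 pairs a comparison, and no label ties a number to a shared mouse, batch or day, so the numbers were not taken as pairs. With the replicate block 4 members were called at G14.5, 1 at G18.5 and 2 with A485 in normal serum. Of all genes it called 1169 and 581 of 15373 at those days, and 516 of 13554 with A485. Crossed numbers, an alternative chosen after seeing the data, gave 3 members in Acss2 knockouts and 2 in p300 knockouts at G14.5. Without cells of other hormones G10.5 had 1. For crossed numbers and for this removal of cells, the share of all genes called is not given. Those counts are not read as a result about the members.

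With DESeq2 the members called were 2 at G3.5, 3 at G5.5, 7 at G8.5, 5 at G10.5, 7 at G16.5, 1 at P14NL, 1 for P14L against P14NL, 1 for Acss2 knockouts against wild types at G18.5, 2 in Stat3 wild types at G18.5, 4 in Stat3 knockouts at G14.5, 6 for p300 knockouts against wild types at G0 and 2 in p300 wild types at G14.5. Of all 15373 genes DESeq2 called 327, 579, 1392, 829 and 1582 at those days of gestation. It called 217 at P14NL and 251 for P14L against P14NL. In the Acss2 comparison it called 356 of 14057 genes. In the Stat3 comparisons it called 488 and 420 of 10207, and in the p300 comparisons 856 and 1014 of 13475. On the high-fat diet the members called were 2 at G14.5, 1 at P7NL, 1 in Acss2 wild types, 8 in Acss2 knockouts and 4 against the standard diet. In the same order, 716, 34, 630, 1199 and 394 of all 14115 genes were called. Members called were 3 with A485 in normal serum, 1 for maternal against normal serum with its vehicle, 2 with nifuroxazide in normal serum and 1 for the Stat3 interaction. All genes called there came to 1010 and 354 of 13554, 777 of 13481 and 49 of 10207.

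With no filter the members called were 1 at G3.5, 3 at G5.5, 7 at G8.5, 5 at G10.5, 7 at G16.5, 4 at G18.5, 7 at P14L, 2 at P14NL, 2 for P7L against P7NL, 1 for P14L against P14NL, 2 in Stat3 wild types at G18.5, 4 in Stat3 knockouts, 5 for p300 knockouts against wild types at G0, 3 in p300 wild types and 5 in p300 knockouts at G14.5. Of all 18165 genes 385, 549, 1328, 817, 1501 and 1072 were called at those days of gestation. It was 855 at P14L, 294 at P14NL, 288 for P7L against P7NL and 370 for P14L against P14NL. In the Stat3 comparisons 524 and 459 of 11655 genes were called, and in the p300 comparisons 868, 1001 and 1011 of 16374. On the high-fat diet the members called were 3 at G14.5, 1 at P7NL, 7 in Acss2 knockouts and 2 against the standard diet. In the same order, 772, 90, 1112 and 327 of all 17070 genes were called. Members called were 6 with A485 in normal serum, 1 for maternal against normal serum with its vehicle, 2 with nifuroxazide in normal serum and 1 for the p300 interaction. All genes called there came to 1143 and 492 of 16547, 753 of 16112 and 245 of 16374.

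With 1 replicate left out the counts ran from 0 to 1 at G5.5, 0 to 0 at G6.5, 0 to 2 at G8.5, 0 to 2 at G10.5, 0 to 3 at G12.5, 3 to 13 at G14.5, 0 to 4 at G16.5, 1 to 3 at G18.5, 0 to 3 at P2L, 0 to 2 at P7L, 0 to 1 at P7NL, 1 to 3 at P14L and 0 to 1 for P7L against P7NL. They ran from 1 to 1 in Acss2 knockouts at G14.5, 0 to 1 in Stat3 wild types at G14.5 and at G18.5, 1 to 3 in Stat3 knockouts, 0 to 1 for p300 knockouts against wild types at G0, 0 to 4 in p300 wild types, 0 to 1 in p300 knockouts at G14.5 and in the p300 interaction, and 0 to 1 on the high-fat diet at G14.5. In cultures they ran from 0 to 1 with A485 in each serum, for maternal against normal serum with its vehicle, and with nifuroxazide in normal serum. The share of all genes called is not given beside these counts of members, so they are not read as a result about the members. The causes were not tested.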
